A study of Mus musculus with 9 samples.

Results

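The early transcriptional response of the intestinal muscularis externa (ME), the muscle coat of the small bowel wall with its myenteric ganglia, to surgical handling was described by comparing the group mean of each transcript 3 h after intestinal manipulation (IM3h) with its mean in control mice. All 634 transcripts of 531 gene symbols in 2 tables deposited by the authors were taken, each transcript once, and the comparison used 2 groups with 6 of the 9 libraries. A table of changed genes gave 502 transcripts of 444 symbols, a table of gliosis genes gave 155 transcripts, and 23 transcripts stood in both. Mice were BL6, 8 to 12 weeks old, with no other allele or agent named in the labels, and total RNA of the ME was converted to 3' RNA-Seq libraries. The IM3h group (3 libraries) had undergone intestinal manipulation (IM), in which the small bowel was exteriorised through a laparotomy and rolled with moist cotton swabs, a mouse model of postoperative ileus (POI). Control libraries (3 libraries) are labelled as sham operated in the sample descriptions but as naive in the headers of the tables and in the study, and which of the terms applies was not resolved here. A contribution of anaesthesia and laparotomy to the differences therefore cannot be told apart from that of handling the bowel if the controls were unoperated. The library numbers of the IM3h group run in another series than those of the controls, and whatever that series stands for cannot be told apart from the 3 h time point.

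Values are the authors' group means of normalized counts, and a ratio is the IM3h mean over the control mean, also given as its log2. Values of single libraries were not analysed here, the depth of each library is unknown, and the authors' own p-values were not used. No spread between replicates, standard deviation or test can therefore be given beside any value in this text, no difference is shown to be larger than the variation between mice, and a fold states only how far apart 2 group means lay. In the table of changed genes no transcript was less than 2-fold apart between any pair of the 3 groups of the series, the 24 h group included. A fold of at least 2 in that table is consequently a condition of entry and not a result, and a gene that was high at 3 h but back at its control level at 24 h could not be listed. The gliosis table showed no such limit, with ratios down to 1.02-fold. In bulk tissue, fewer cells of a type and less RNA per cell cannot be told apart.

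Mechanical handling of the bowel is known to activate resident macrophages and other cells of the ME within hours. Injured and stretched cells switch on immediate early genes and stress proteins, and NF-kB and STAT3 signalling drives chemokines, adhesion molecules and, with them, the inhibitors that limit the same pathways. Leukocytes that follow the chemokines into the muscle layer impair its contraction, and enteric glia, the support cells of the myenteric ganglia, can take on a reactive state called gliosis.

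Of the 634 transcripts 349 had a higher mean at IM3h and 285 a lower one. At least 2-fold above control were 309 transcripts (48.7%) and at least 2-fold below it 231 (36.4%). The 2 directions lay at different levels. Transcripts at least 2-fold above control went from a median control mean of 1.87 to a median IM3h mean of 8.42 normalized counts, with a median ratio of 4.06-fold and a highest ratio of 143-fold. Those at least 2-fold below control went from a median of 3.70 to 1.35 normalized counts, with a median of 2.42-fold below control and a largest value of 22.9-fold below it. The higher of the 2 group means was under 5 normalized counts for 145 of the 231 transcripts below control (62.8%) and for 100 of the 309 above it (32.4%). It reached 50 normalized counts or more for 6 transcripts below control and 50 above it. Low means were frequent in both groups, since 96 transcripts had a control mean under 1 normalized count and 99 an IM3h mean under 1.

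**Figure D1:**
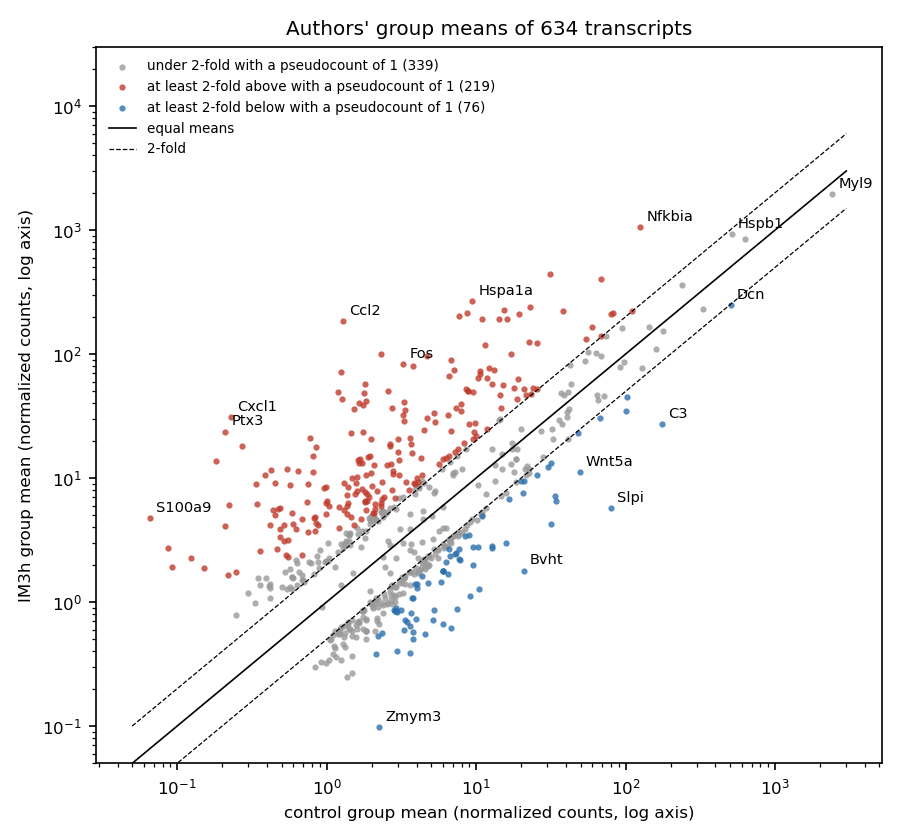
Group mean at IM3h (vertical, log axis) against group mean in controls (horizontal, log axis), both in the authors' normalized counts, with 1 point for each of 634 transcripts. The solid line marks equal means and the dashed lines 2-fold. Red and blue points stayed at least 2-fold apart after 1 was added to both means (219 above, 76 below), and most points below the lower dashed line at means of a few counts are grey.

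A pseudocount, a constant added to both means before the ratio is taken, shrinks the ratios of low transcripts most and shows how much of the picture they carry. With a pseudocount of 1, 219 transcripts (34.5%) stayed at least 2-fold above control, which is 70.9% of those without it. Below control 76 transcripts (12%) stayed, or 32.9%. Among transcripts at least 2-fold apart, the share above control was 57.2% without a pseudocount and 74.2% with a pseudocount of 1. That share was 60.1% with a pseudocount of 0.1 (298 above, 198 below), 66.9% with 0.5 (255 above, 126 below) and 85.4% with 5 (123 above, 21 below). The median log2 ratio over all transcripts changed from 0.79 to 0.55 with a pseudocount of 1. In the gliosis table, whose means were higher, 52 transcripts were at least 2-fold above and 9 below control, and 49 and 6 stayed with a pseudocount of 1. Its median log2 ratio was 0.39 without and 0.38 with the pseudocount.

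**Figure D2:**
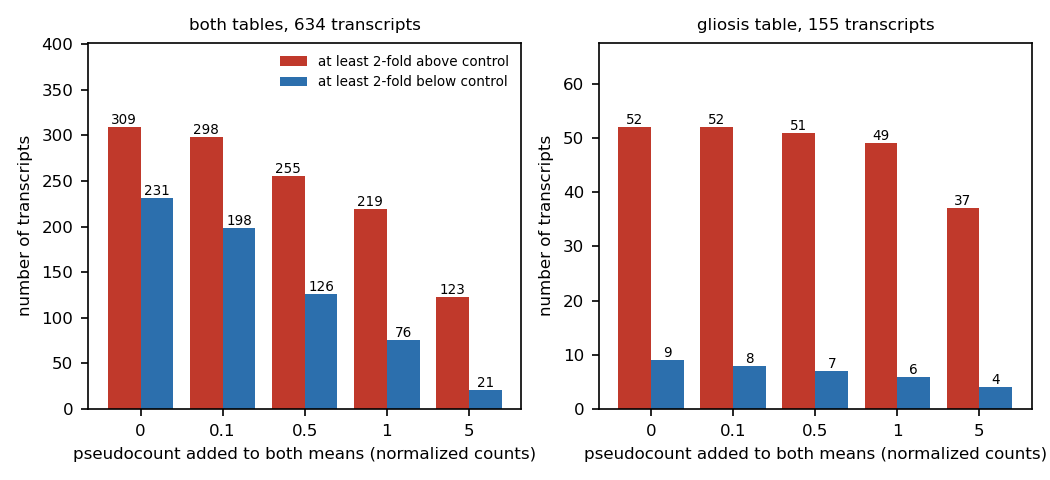
Number of transcripts at least 2-fold above (red) or below (blue) control at 3 h, by the pseudocount added to both group means in normalized counts, for both tables together (left, 634 transcripts) and the gliosis table (right, 155 transcripts). From no pseudocount to a pseudocount of 5 the red bars on the left go from 309 to 123 and the blue bars from 231 to 21.

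The split also depended on the zero point. Ratios are relative to the authors' normalization, and the median log2 ratio of the gliosis table, the table with no limit on the fold, lay 0.39 above equality. When that median was taken as zero, 210 transcripts were at least 2-fold above and 249 below control (45.8% above), and with a pseudocount of 1 the counts were 166 and 210 (44.1% above). The gliosis table holds genes assembled as markers of reactive glia, so its median is not a neutral zero. Raising the zero point lowers the share above control by construction. Transcripts of the gliosis table only had a median log2 ratio of 0.146, and all its genes, 1 transcript each, a median of 0.499. The balance of higher to lower transcripts thus depends on the zero point chosen, and no neutral one was available here. In the descriptions that follow, ratios are on the authors' scale.

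By its construction the pseudocount acts on low levels, and the counts by level show where the ratios lay. Where the higher group mean was under 2 normalized counts, 4 of 31 transcripts stayed at least 2-fold above control and 0 of 53 stayed below it. Between 2 and 5 normalized counts 28 of 69 stayed above and 28 of 92 below, and between 5 and 10 the numbers were 56 of 72 and 23 of 50. From 10 to 50 normalized counts 81 of 87 stayed above and 19 of 30 below, and at 50 or more all 50 and all 6 stayed. The order of the genes shifted less among the increases in mean for the 20 most extreme ratios, but about equally for the 50 most extreme. Taking 1 transcript per gene, the one with the largest total, 16 of the 20 highest ratios without the pseudocount were among the 20 highest with it, and 13 of the 20 lowest were among the 20 lowest. Of the 50 highest 41 were shared, and of the 50 lowest 40.

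The 10 genes whose ratios shrank most all had a mean of at most 0.34 normalized counts in 1 group. S100a9, a calcium-binding protein abundant in neutrophils, went from 0.0658 to 4.77 normalized counts, and its log2 ratio of 6.18 became 2.44. The other transcript of S100a9 had a log2 ratio of 4.97 without a pseudocount. Zmym3, a zinc finger protein of chromatin complexes, was the lowest ratio of all without a pseudocount (2.25 to 0.0983 normalized counts, 22.9-fold below control), and its log2 ratio of -4.51 became -1.56. The others were above control at IM3h. Arc, an immediate early gene best known from neurons, went from 0.181 to 13.7 normalized counts (log2 ratio 6.24, with the pseudocount 3.64), and Areg, a ligand of the EGF receptor, from 0.338 to 8.99 (4.73, with the pseudocount 2.90). Adam8, a membrane protease, Il1r2, a decoy receptor for interleukin-1, and Slfn1 reached IM3h means of only 1.91, 2.29 and 1.90 normalized counts, and Cd300lf, an inhibitory receptor of myeloid cells, reached 4.11. Ptx3 and Cxcl1 also belonged to this group but kept log2 ratios of 4.35 and 4.70, since their IM3h means were 23.7 and 31.0 normalized counts.

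The highest ratios with a pseudocount of 1 belonged to secreted attractants, to a matrix protease and to stress and early response genes. Ccl2, which attracts monocytes, led with a mean of 1.29 normalized counts in controls and 184 at IM3h (143-fold, log2 ratio with the pseudocount 6.34). Adamts4, a protease that cleaves proteoglycans, had 2.33 and 99.8 normalized counts (42.9-fold, 4.92). Cxcl1, which attracts neutrophils, went from 0.230 to 31.0 normalized counts (4.70). Socs3, which inhibits STAT3 signalling, had 7.66 and 205 normalized counts (26.7-fold), and Hmox1, which degrades heme, 1.19 and 49.1 (41.3-fold). For Sphk1, which makes sphingosine 1-phosphate, the means were 1.81 and 57.7 normalized counts, for Fos, a subunit of the AP-1 transcription factor, 3.25 and 83.3, for Maff, a small Maf transcription factor, 1.77 and 48.3, and for Errfi1, a feedback inhibitor of the EGF receptor, 3.76 and 80.1. Hspa1a and Hspa1b, which encode inducible HSP70, had 9.42 and 8.69 normalized counts in controls and 266 and 213 at IM3h. The 2 genes are near-identical copies and neighbours, and reads could have been divided between them, so that their separate values are uncertain. Ptx3, a soluble pattern recognition protein, Ccl7, a further monocyte attractant, and Gadd45b, a stress-induced growth arrest gene, had log2 ratios of 4.35, 4.29 and 4.10 with the pseudocount.

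**Figure D3:**
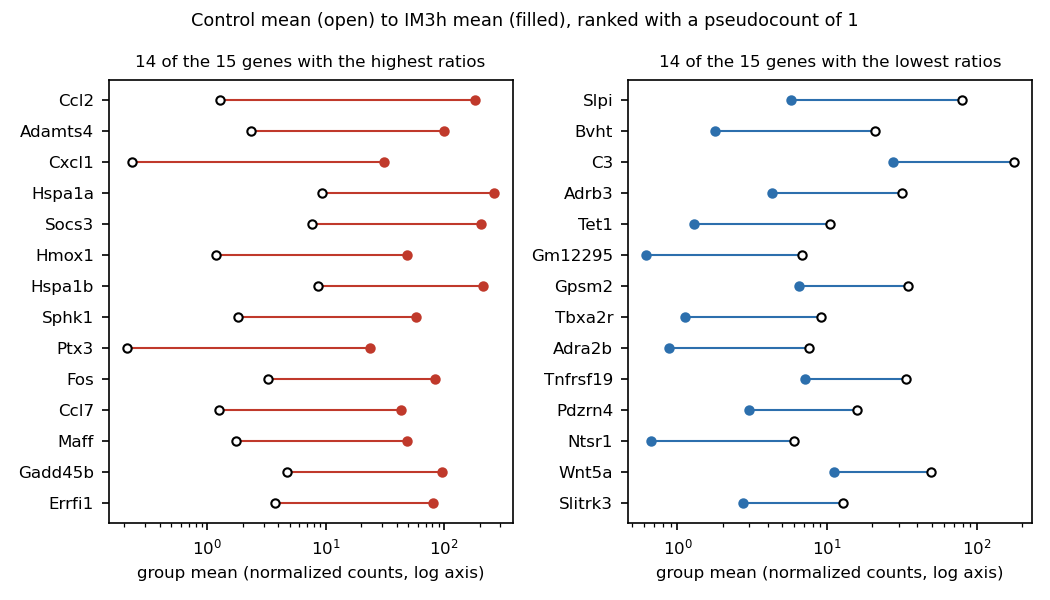
Authors' group means in normalized counts (log axis) for 14 of the 15 genes with the highest (left) and 14 of the 15 with the lowest (right) log2 ratio after a pseudocount of 1, 1 transcript per gene. Open circles are control means and filled circles IM3h means. Ccl2 spans 1.29 to 184 and Slpi 79.5 to 5.76, and several of the lowest genes, such as Gm12295, end below 1 normalized count.

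The lowest ratios belonged to other kinds of gene, among them a protease inhibitor and a complement factor, receptors coupled to G proteins and regulators of development. Slpi, an inhibitor of leukocyte proteases, went from 79.5 to 5.76 normalized counts (13.8-fold below control, log2 ratio with the pseudocount -3.57). The long noncoding RNA Bvht, known for its role in heart development, went from 20.9 to 1.79 (11.6-fold below, -2.97), and C3, the central complement component, from 175 to 27.3 (6.42-fold below, -2.64). A group of receptor genes was low as well. Adrb3, the adrenergic receptor of fat cells that is also present in gut muscle, went from 31.6 to 4.27 normalized counts, Tbxa2r, the thromboxane receptor, from 9.09 to 1.13, Adra2b, an adrenergic receptor, from 7.51 to 0.881, and Ntsr1, the neurotensin receptor, from 5.98 to 0.665. Tnfrsf19, a receptor of the TNF receptor family, had 33.5 and 7.13 normalized counts, and Gpsm2, which orients the mitotic spindle, 34.5 and 6.48. Wnt5a, a ligand of noncanonical Wnt signalling, had 49.2 and 11.1 normalized counts (4.43-fold below), and Tet1, which oxidises methylated cytosine, 10.4 and 1.29. Pdzrn4, Slitrk3, a synaptic adhesion protein, and Gm12295, a gene model, had log2 ratios of -2.07, -1.88 and -2.26 with the pseudocount.

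Differences of means, which follow abundance, picked out another set. Nfkbia, which encodes the NF-kB inhibitor IkB alpha, had the largest difference, with 126 normalized counts in controls and 1065 at IM3h, a difference of 939 and a ratio of 8.45-fold. Ifrd1, a transcriptional coregulator, followed with 31.4 and 443 normalized counts, and Hspb1, a small heat shock protein, with 513 and 924, a difference of 411 at a ratio of only 1.80-fold. Gm13889, a gene model, had 68.3 and 404 normalized counts, Gem, a small GTPase that restrains calcium channels, 22.97 and 241, and Thbs1, the matricellular protein thrombospondin 1, 15.4 and 226. B2m, the light chain of MHC class I, had 627 and 844 normalized counts (1.35-fold). Hspa1a, Hspa1b and Socs3 filled the remaining places. In the other direction Myl9, the regulatory light chain of smooth muscle myosin and the transcript with the highest control mean of both tables, had 2414 and 1963 normalized counts, which is 452 lower at a ratio of 1.23-fold below control. Dcn, the collagen-binding proteoglycan decorin, had 506 and 248.8 normalized counts (2.04-fold below), Hspb6, a small heat shock protein of muscle, 331 and 230, and Gja1, the gap junction protein connexin 43, 161 and 110. Nexn, an actin-binding protein of muscle, had 100.7 and 34.97 (2.88-fold below), Serping1, the C1 inhibitor, 128 and 77.3, and Thrsp, a regulator of lipid synthesis, 68.0 and 30.7. C3, Slpi and Wnt5a were among these 10 too.

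Genes were next grouped into 27 lists of 824 genes by role or cell type, of which 146 were in the tables. Over all 531 genes, 259 (48.8%) were at least 2-fold above control and 208 (39.2%) below it, and with a pseudocount of 1 the numbers were 183 (34.5%) and 69 (13%). Counts of listed genes are descriptions to be read beside these shares and beside the entry condition of the table of changed genes. Of 33 chemokine genes 6 were present, all with higher means at IM3h, and 5 stayed at least 2-fold above control with the pseudocount. Besides Ccl2, Ccl7 and Cxcl1 these were Cxcl10, an interferon-induced attractant of T cells, with 0.817 and 14.96 normalized counts, and Ccl9, with 2.52 and 12.7. Ccl25, a chemokine of the small intestinal epithelium, had 1.59 and 3.98 normalized counts. Of 37 immediate early genes 10 were present, all above control, and 9 were at least 2-fold above it with the pseudocount. Their median log2 ratio with the pseudocount was 3.74, against 0.55 over all genes. All 10 came from the table of changed genes, whose genes had a median of 0.71 and whose entry condition sets part of the contrast. Egr1, a zinc finger transcription factor, had 11.0 and 191 normalized counts (17.4-fold), Atf3, a stress-induced transcription factor, 1.66 and 40.2 (24.3-fold), Fosl2, a Fos-related subunit of AP-1, 25.7 and 122, and Rcan1, an inhibitor of calcineurin, 11.5 and 119. Klf10, a Krüppel-like factor, was lowest among them with 0.654 and 1.73 normalized counts.

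Genes known as feedback inhibitors of these pathways were also above control. Of 41 such genes 9 were present, all from the table of changed genes, all above control and 8 at least 2-fold above it with the pseudocount. Their summed means were 181.5 normalized counts in controls and 1754 at IM3h (9.67-fold). Nfkbia alone supplied 126 and 1065 of these sums, so the fold of the sums mainly follows that gene. Nfkbia, Socs3 and Errfi1 were described above. Trib1, a pseudokinase, had 14.1 and 192 normalized counts, Zfp36, which destabilises cytokine mRNAs, 12.1 and 77.0, Cish, a relative of Socs3, 6.56 and 66.6, Tnip1, an inhibitor of NF-kB, 9.61 and 49.5, and Rgs16, which shortens G protein signals, 0.844 and 17.9. Nfkbie, a further NF-kB inhibitor, was only 2.03-fold above control, from 0.829 to 1.68 normalized counts. Among 4 adhesion genes Icam1, a ligand of leukocyte integrins, had 2.58 and 50.2 normalized counts (19.4-fold), and Cd44, the hyaluronan receptor, 38.3 and 221 (5.78-fold).

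Stress and redox genes added 6 and 6 members, all above control. The cell cycle inhibitor Cdkn1a had 16.1 and 193 normalized counts (12.0-fold) and Gadd45b 4.71 and 96.7. Asns, which makes asparagine, had 8.02 and 11.9 normalized counts and Hspb1 was described above, and both were under 2-fold. Of the redox genes, Txnrd1, a thioredoxin reductase, had 17.1 and 101 normalized counts and Srxn1, which repairs peroxiredoxins, 22.6 and 126. Lcn2, which binds iron-carrying siderophores, had 0.573 and 8.79 (15.3-fold), and Cp, the copper protein ceruloplasmin, 7.04 and 10.6 (1.504-fold).

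Acute phase and complement genes were divided. Of 11 present 6 were above and 5 below control. Serpina3n, a serine protease inhibitor, had 3.27 and 41.2 normalized counts (12.6-fold), Saa3, an acute phase serum amyloid, 1.31 and 9.15, and Lrg1 2.16 and 7.81. The complement receptors C5ar1 (1.37 and 5.17 normalized counts) and C3ar1 (6.70 and 13.6) were above control, whereas complement components were below it, C3 as given above, C4b with 22.5 and 11.8 and C1ra with 22.0 and 12.6. Of 8 cytokine and growth factor genes 6 were above control, including Il11, a member of the interleukin-6 family, with 0.441 and 5.54 normalized counts, Gdf15, a stress-induced factor, with 0.455 and 5.003, and Angptl4, which inhibits lipoprotein lipase, with 2.99 and 16.3. Hgf, the growth factor that acts on MET, had 4.84 and 1.999 normalized counts and with Wnt5a was below control. Of 10 receptors of these factors 8 were above control, led by Tnfrsf12a, the receptor of TWEAK, with 1.52 and 36.2 normalized counts (23.8-fold), and Osmr, the oncostatin M receptor, with 1.95 and 15.1. Csf1r, the receptor for the growth factor of macrophages, had 20.6 and 7.52 normalized counts and with Tnfrsf19 was below control.

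**Figure D4:**
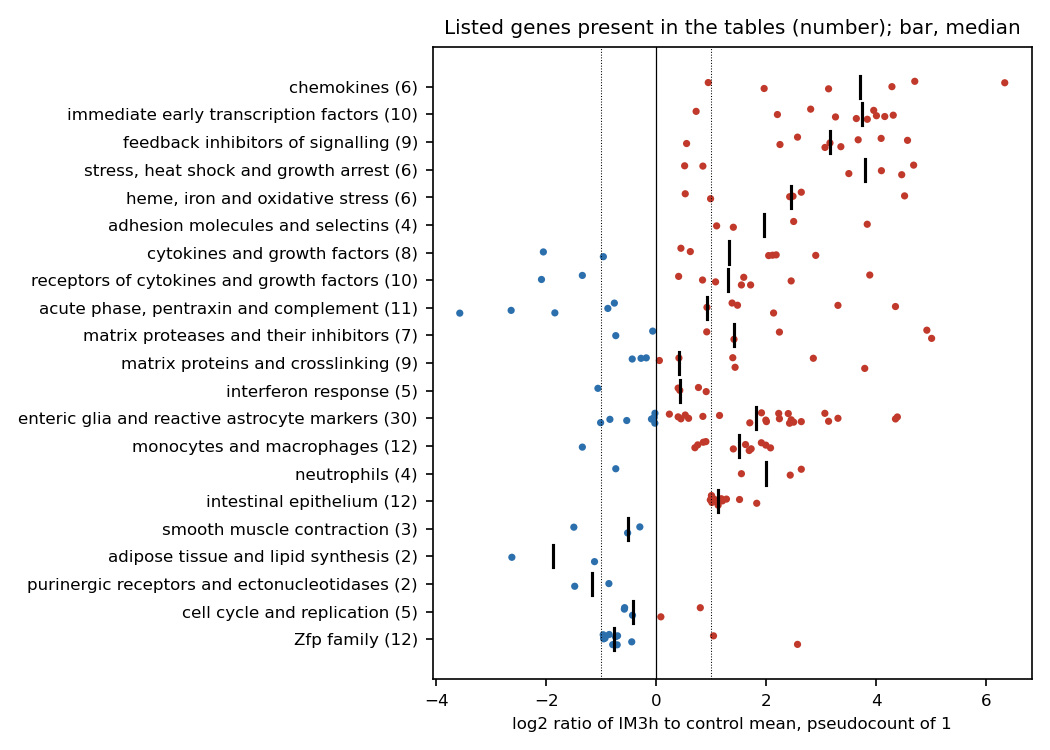
Log2 ratio of the IM3h to the control mean with a pseudocount of 1 (horizontal) for each gene of 20 lists and of the Zfp family present in the tables, with 1 point per gene, spread vertically only for visibility. Vertical bars are medians, the number present is in brackets, and dotted lines mark 2-fold. Points of the chemokine, immediate early and feedback lists lie to the right of 0, whereas those of the acute phase and complement list lie on both sides.

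Matrix genes differed by kind. Of 7 proteases and inhibitors 5 were above control, with Timp1, the tissue inhibitor of metalloproteinases, at 0.994 and 8.42 normalized counts beside Adamts4. Adamts5, the other major aggrecanase, had 13.3 and 12.7 normalized counts, and Mmp9, a gelatinase, 3.03 and 1.42. Among 9 matrix proteins 4 were at least 2-fold above control. Tnc, the matricellular protein tenascin C, had 79.8 and 211 normalized counts (2.64-fold), and Ccn1, a matricellular protein encoded by an early response gene, 1.99 and 20.7 (10.4-fold). Other members were closer to control, with Col5a1 at 36.1 and 29.6 normalized counts, Col12a1 at 14.9 and 15.5 and Thbs2 at 37.4 and 27.3, and none of the 9 was 2-fold below it. Matrix genes outside this list were, namely Dcn, Col5a2 and Fbln5, by 2.04-fold, 2.06-fold and 2.04-fold. Col12a1 was above control on the authors' scale and below it when the gliosis table's median was taken as zero.

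The gliosis table holds genes that the study assembled as markers of reactive glia. Of its genes, 38 (34.9%) were at least 2-fold above and 7 (6.42%) below control, and with a pseudocount of 1 the counts were 37 (33.9%) and 5 (4.59%). Sets known from reactive astrocytes of the brain were used as landmarks. Of 13 pan-reactive genes 12 were present, 11 above control and 8 at least 2-fold above it with the pseudocount. Gfap, the intermediate filament of glia, had 2.79 and 11.3 normalized counts (4.06-fold), Steap4, a metalloreductase, 3.32 and 35.2 (10.6-fold), and Vim, the intermediate filament vimentin, 239 and 360 (1.51-fold). The log2 ratio of Gfap was 2.02 for this transcript, 1.29 for its other transcript and 1.62 with all its transcripts summed. S1pr3, a receptor for sphingosine 1-phosphate, was near equality with 17.5 and 17.2. Of 12 genes of the A2 set, described after ischemia, 9 were present and 7 were at least 2-fold above control with the pseudocount. Emp1, a membrane protein, had 13.1 and 74.7 normalized counts, Ptgs2, the inducible cyclooxygenase, 8.77 and 50.6, Cd14, the LPS coreceptor, 1.99 and 10.9, and Cd109 5.06 and 4.95. Of 12 genes of the A1 set, described after LPS, 8 were present and 2 were at least 2-fold above control, namely Fkbp5, a glucocorticoid-induced cochaperone, with 7.95 and 34.9 normalized counts and Srgn, a proteoglycan of secretory granules, with 2.71 and 12.999. Fbln5, an elastic fibre protein, had 6.56 and 3.21 normalized counts, and H2-D1, an MHC class I gene, 94.7 and 162. Amigo2 (4.44 and 5.42) was above control on the authors' scale but below it when the table's median was taken as zero. The median log2 ratios with the pseudocount were 2.35 for the pan-reactive, 1.99 for the A2 and 0.32 for the A1 genes, beside 0.43 over all genes of the gliosis table. Cxcl10 and Lcn2 of the pan-reactive set came only from the table of changed genes, and without them the median of the remaining 10 was 1.97. Several of these genes are also made by smooth muscle, fibroblasts, endothelium or leukocytes, so the means of whole ME do not assign them to glia.

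**Figure D5:**
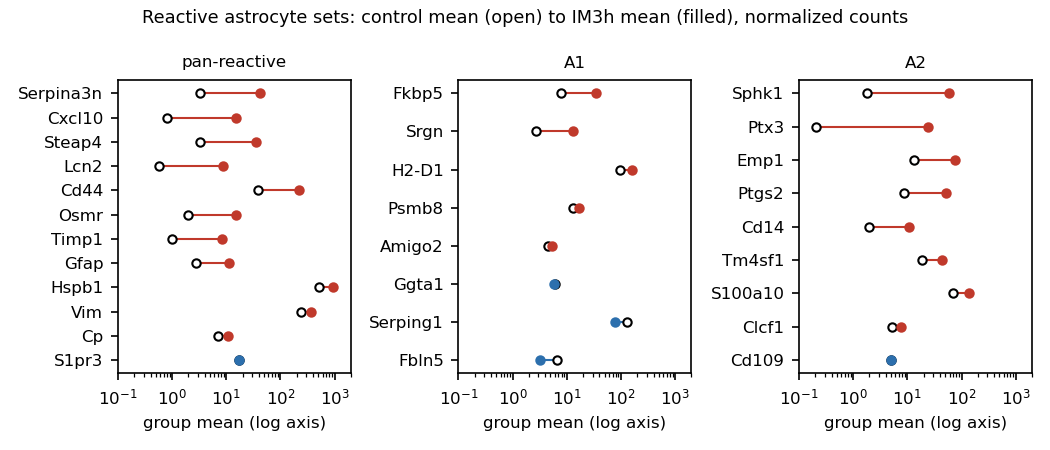
Authors' group means in normalized counts (log axis) of genes of the pan-reactive, A1 and A2 astrocyte sets that were in the tables, ordered by their log2 ratio. Open circles are control means and filled circles IM3h means, red where the IM3h mean was higher and blue where it was lower. Most pan-reactive and A2 genes shift to the right, and the A1 genes include shifts to both sides.

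Among further glial genes, Nes, the intermediate filament nestin, had 5.31 and 28.5 normalized counts (5.38-fold), and Slc1a3, a glutamate transporter of glia, 3.25 and 3.00. Of the enteric neuron list only Gap43, a growth cone protein, was present, with 40.4 and 31.3 normalized counts. Of 31 smooth muscle genes 3 were present, Myl9, Hspb6 and Nexn, all with lower means at IM3h. The defining markers of glia S100b and Sox10 and most other muscle and neuron markers were not among the 634 transcripts, so the label of the tissue could be checked against few genes. The lowest ratios of the gliosis table with the pseudocount, after C3 and Wnt5a, were those of Psmb9, an immunoproteasome subunit (2.85 and 0.846 normalized counts), Dcn, Col5a2, a fibrillar collagen (47.8 and 23.2), Hgf, C4b, Ltbp4, which binds latent TGF-beta (28.1 and 14.9), Fbln5 and Itgb5, an integrin subunit (21.2 and 11.9). At its other end stood Ccl2, Adamts4, Cxcl1, Hmox1, Sphk1, Ptx3, Ccl7, Gadd45b, Tnfrsf12a and Icam1.

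Markers of other cell types differed between the groups as well. Of 41 monocyte and macrophage genes 12 were present, 11 above control and 7 at least 2-fold above it with the pseudocount, and their summed means were 43.9 normalized counts in controls and 91.1 at IM3h. Msr1, a scavenger receptor, had 1.54 and 7.401 normalized counts, Ms4a6d 1.01 and 6.58, and Itgam, the integrin CD11b, 1.87 and 6.59. Csf1r was the only one of the 12 below control. Of 20 neutrophil genes 4 were present, with summed means of 3.796 and 17.3 normalized counts, and besides S100a9, Lcn2 and Il1r2 they included Mmp9, which was below control.

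All 12 epithelial genes present, of a list of 40, had higher means at IM3h. Their ratios ran only from 2.03-fold to 3.72-fold, and 11 stayed at least 2-fold above control with the pseudocount. All 12 came from the table of changed genes, whose entry condition sets the lower end of that range. Apoa1, an apolipoprotein, had 110 and 223 normalized counts, Fabp2, the intestinal fatty acid binding protein, 54.3 and 133, Slc5a1, the glucose transporter SGLT1, 15.1 and 56.2, Krt20, a keratin of differentiated epithelium, 24.1 and 53.1, and Sis, the disaccharidase sucrase-isomaltase, 9.73 and 23.4. The summed means of the 12 genes were 290 normalized counts in controls and 660 at IM3h (2.28-fold), so epithelial transcripts were measurable in this muscle preparation in both groups. Ccl25, which is known from the epithelium and came from the table of changed genes too, was above control by a similar ratio of 2.51-fold. The part of epithelial RNA in that and in the other ratios was not tested. Without the epithelial genes 296 transcripts were at least 2-fold above control and 208 with the pseudocount.

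Small lists on the other side were those of adipose tissue, with Adrb3 and Thrsp (summed means 99.6 and 34.96 normalized counts), and of purinergic signalling, with P2ry14, a receptor for UDP-glucose (2.71 and 1.04), and Slc29a3, a nucleoside transporter (9.58 and 2.78). Of 5 cell cycle genes 3 were below control and 2 above it, all with means under 4 normalized counts, and 1 of the 2 (Ccna2, 3.61 and 3.89) moved below it when the gliosis table's median was taken as zero. Of 5 interferon response genes 4 were above control by less than 2-fold, such as H2-K1, an MHC class I gene, with 73.6 and 139 normalized counts. Genes named Zfp with a number, mostly zinc finger proteins of the nucleus, were 12, of which 10 were at least 2-fold below control without and 0 with the pseudocount. Their means were low, as in Zfp932 (3.25 and 1.19 normalized counts) and Zfp120 (4.75 and 1.96), and Zfp36 and Zfp451 were the exceptions above control. Of 13 solute carriers 9 were above control, led by Slc38a2, an amino acid transporter (10.7 and 72.7), and several others, such as Slc15a1 and Slc5a1, are epithelial.

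Promoters of the genes with high ratios were examined for letters bound by the factors named above, since AP-1, CREB/ATF and NF-kB are known to drive early response genes. RefSeq promoters of build GRCm38.p6, from 250 bases before to 50 after the start of each gene, were matched for 403 of the 531 genes. The motifs, read on both strands, were the CRE, TGACGTCA, the AP-1 site, TGACTCA, which does not lie within the CRE, and 2 forms of the 10-base kB site, shown in capitals below for Cxcl1 and Slamf8. Of 27 matched genes at least 8-fold above control with a pseudocount of 1, 3 (11.1%) held a CRE, 5 (18.5%) an AP-1 site and 2 (7.41%) a kB site, and 9 (33.3%) held any of these. Over all 27025 genes with a promoter the shares were 2.03%, 5.95%, 0.281% and 8.17%. Of 43 matched genes at least 2-fold below control with the pseudocount 1 held a CRE, 0 an AP-1 site and 0 a kB site, and over the 220 genes of the tables under 2-fold the shares were 3.64%, 9.09% and 1.82%, with 14.1% for any motif. Over all 140 matched genes at least 2-fold above control the shares were 7.14%, 11.4% and 2.14%, with 19.3% for any motif, nearer to those 220 genes than the 27 genes with the highest ratios were. These are descriptions of letters in a window and do not show binding, and a promoter without a match says nothing about the factor.

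The windows that carry the matches in the 9 genes at least 8-fold above control are printed 5' to 3' on the strand of the gene, with 25 bases on each side, so that the site can be seen beside the values of its gene. The motif is in capitals. The first 2 lines hold kB sites, the next 3 the CRE, and the last 5 AP-1 sites, of which 2 belong to Csrnp1, a nuclear protein of the immediate early group.
Cxcl1, chr5:90891149-90891208, plus strand, motif starting 71 bases before the start: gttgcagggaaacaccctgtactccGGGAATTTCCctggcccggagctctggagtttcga
Nfkbia, chr12:55492642-55492701, minus strand, 29 bases before the start, kB site on the opposite strand: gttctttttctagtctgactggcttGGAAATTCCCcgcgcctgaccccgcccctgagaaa
Maff, chr15:79347466-79347523, plus strand, 29 bases before the start: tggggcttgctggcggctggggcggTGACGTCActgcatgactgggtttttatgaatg
Errfi1, chr4:150854994-150855051, plus strand, 51 bases before the start: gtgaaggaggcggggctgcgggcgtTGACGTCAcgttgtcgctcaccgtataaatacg
Rcan1, chr16:92400221-92400278, minus strand, 175 bases before the start: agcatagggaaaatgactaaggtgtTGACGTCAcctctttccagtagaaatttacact
Sphk1, chr11:116531762-116531818, plus strand, 50 bases before the start: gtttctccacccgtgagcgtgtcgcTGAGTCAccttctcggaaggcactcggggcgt
Csrnp1, chr9:119983094-119983150, minus strand, 102 bases before the start: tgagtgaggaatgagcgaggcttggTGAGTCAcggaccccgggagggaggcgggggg
Csrnp1, chr9:119983006-119983062, minus strand, 14 bases before the start: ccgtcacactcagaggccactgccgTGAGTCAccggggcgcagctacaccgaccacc
Fas, chr19:34290423-34290479, plus strand, 211 bases before the start: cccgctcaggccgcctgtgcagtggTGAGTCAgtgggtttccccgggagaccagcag
Cxcl10, chr5:92348932-92348988, minus strand, 74 bases before the start: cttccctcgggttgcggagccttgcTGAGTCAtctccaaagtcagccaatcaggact
The other form of the kB site was found above 2-fold only in Slamf8, a receptor of myeloid cells, after the gene's start (chr1:172590519-172590557, minus strand): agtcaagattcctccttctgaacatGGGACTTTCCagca

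Rcan1 held an AP-1 site in addition to its CRE. Csrnp1 had 1.76 normalized counts in controls and 38.5 at IM3h (21.9-fold), and the means of the others, apart from Fas, the death receptor, were given above with their roles. Cxcl1 and Nfkbia, the genes with a kB site, had control means of 0.230 and 126 normalized counts, so the matches included a gene at a low and a gene at a high control mean. The CRE genes Maff, Errfi1 and Rcan1 ranged from 1.77 to 11.5 normalized counts in controls and from 48.3 to 119 at IM3h.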

How the data were processed

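RNA of the ME of BL6 mice was extracted with a Qiagen protocol and sequenced as QuantSeq 3' libraries, which read the ends of transcripts, all on the same lane according to the study's methods. Partek is named in the submitters' processing notes, with no version. The sources used here do not give the aligner, build, normalization or model. The authors deposited least-squares group means and totals of normalized counts, an expression signal per RefSeq transcript, together with their own p-values, FDR, ratios and fold changes for each contrast and a table of GO terms, none of which was used. Each total equalled 3 times the sum of the 3 group means, and 0 columns of values per library were used.

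From the means of the IM3h and control groups the ratio, the log2 ratio and the difference were computed, also with pseudocounts of 0.1, 0.5, 1 and 5 (Python 3.11.15, pandas 2.3.3, numpy 2.4.6, matplotlib 3.10.9), with code tested on simulated means of known folds. Depth is unknown and no interval can be given. For genes with several transcripts, the transcript with the largest total was taken. Of 81 such genes 49 had equal log2 ratios for all transcripts within 0.01, and isoform values may rest on shared reads.

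Named were the 15 genes with the highest and the 15 with the lowest log2 ratio with a pseudocount of 1, the 10 with the highest and lowest differences, the 10 whose ratio shrank most, the 10 highest and lowest of the gliosis table and any member of the lists. Some genes that this rule selects are not reported here by name, although they are included in counts. The comparison, the members and the lists were chosen with earlier results of these data known, and the astrocyte sets were added after the values were seen. Gene names and neighbours came from RefSeq (GRCm38.p6), in which all 634 transcripts found a gene, and coordinates are given only for RefSeq promoters. Alternatives are listed in the closing section.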

Additional observations from a re-analysis of the deposited data

How the results depend on the processing

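No test could be repeated, no library could be left out and no paired analysis was possible because the values used were group means. Counts are therefore called moved when they differ by more than 1.5-fold. The 309 transcripts at least 2-fold above control became 123 with a pseudocount of 5, 137 when a total of 90 or more normalized counts was required, 156 at a 4-fold limit and 52 in the gliosis table alone. The 231 below control became 126 with a pseudocount of 0.5, 21 with 5, 37 with that total, 36 at 4-fold and 9 in the gliosis table alone. Only 229 of the 634 transcripts had that total and only 155 stood in the gliosis table, so these counts were bound to be smaller. Among transcripts at least 2-fold apart, 78.7% were above control with that total and 85.2% in the gliosis table, against 57.2% over all 634. With a pseudocount of 1, the 219 above became 127 with that total and 106 at 4-fold, and the 76 below became 22 and 13, 219 at 1.5-fold and 210 when the gliosis table's median was taken as zero. Counts by gene and the counts above control without epithelial genes stayed within 1.5-fold, as did the gliosis median under each alternative. The gliosis table alone and the exclusion of epithelial genes were chosen after the data were seen. A pseudocount added to both means cannot change the direction of a ratio. Of 166 named genes none changed direction with all transcripts summed, and 42 moved by more than 1.5-fold with a pseudocount of 1. Group means without depth limit every value below a few counts.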

Other observations

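Some genes that lie near each other in the genome were both in the tables. In the RefSeq order of protein-coding and long noncoding genes, 54 pairs of listed genes had at most 3 genes between them, of which 22 pairs were both above control, 17 both below it and 15 in opposite directions. Over all 531 genes 287 were above and 244 below control, and how many such pairs would arise without regard to position was not computed. Direct neighbours above control included, among others, Ccl2 and Ccl7, Itgam and Itgax, C5ar2 and C5ar1, and the apolipoprotein genes Apoa1, Apoc3 and Apoa4, whose log2 ratios with a pseudocount of 1 were 1.01, 1.05 and 1.004. C1rl and C1ra, neighbours with roles in the first complement component, were both below control, with -0.96 and -0.76. Slpi stood beside Matn4, a matrilin, whose log2 ratio was 0.83 against -3.57 for Slpi. These pairs were looked for after the values were seen, many are related copies whose reads may be divided, and no test was made.

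Of the 81 genes with more than 1 transcript, 6 had transcripts on both sides of control and 5 had log2 ratios spread over more than 1. For Gcnt2, a glycosyltransferase, 1 transcript had 0.272 normalized counts in controls and 17.99 at IM3h (log2 ratio 6.05), while the transcript with the largest total had 37.0 and 48.7 (0.39). For Osbpl1a, a lipid-binding protein, the coding transcript had 11.0 and 4.97 normalized counts and a noncoding one 0.590 and 5.23. Noncoding RefSeq transcripts numbered 30, of which 17 were above control and 13 below it, and with a pseudocount of 1 10 were at least 2-fold above and 5 below. Over all 634 transcripts 349 were above control and 285 below it. With that pseudocount 219 (34.5%) were at least 2-fold above and 76 (12%) below, so the noncoding counts do not set these transcripts apart. H19, an imprinted long noncoding RNA, had 0.422 and 11.6 normalized counts. These examples were chosen after their values were seen.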
